A study of Mus musculus with 30 samples.

Results

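The proteasome genes are the subunit and assembly genes of the protein complex that breaks down ubiquitin-tagged proteins, measured here in 3 pools of mouse spinal motoneurons. Members were all probe sets whose single gene symbol was Psm followed by a letter from a to g and a number, as the array annotation and current RefSeq symbols give it. This gave 56 of the 12422 probe sets tested, for 44 of 8251 genes. They were grouped by symbol into 17 core genes (Psma and Psmb, 22 probe sets), 20 regulatory particle genes (Psmc and Psmd, 25 probe sets), 3 activator genes (Psme1, Psme3 and Psme4, 4 probe sets) and 4 core assembly chaperone genes (Psmg, 5 probe sets). The inhibitor Psmf1 had no probe set of its own, and 2 probe sets that carry the symbols of both Psme2 and Psme2b fell outside the rule and are given no values. All 56 members entered the tests, with no filter on low values.

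Captures were cut by laser from the cords of 5 adult mice that had undergone a sham operation, and no other treatment group is compared here. From each animal 3 pools were taken: intermediolateral column motoneurons (IML, the preganglionic neurons of the sympathetic system), lateral motoneurons (LMN) and medial motoneurons (MMN), the last a pair of somatic pools that drive skeletal muscle. Each pool of each animal was 400 captures, whose RNA was divided, amplified in 2 rounds and put on 2 arrays, so 15 samples of 30 arrays were compared with n = 5 animals a pool. The sources used here do not give strain, sex, exact age or the kind of operation. Laser captures also take up tissue that touches the cell, and 400 captures are a small input.

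The proteasome has a core made of stacked rings, an outer pair of alpha rings that gate the channel and an inner pair of beta rings that hold the cutting sites. A regulatory particle, made of a lid and a base, binds the core, takes in ubiquitin-tagged proteins and unfolds them with the ATPases of its base. Under interferon, cells make the inducible catalytic subunits Psmb8, Psmb9 and Psmb10, which replace Psmb5, Psmb6 and Psmb7, and the activators Psme1 and Psme2, which together form a ring that caps the core and favours peptides for MHC class I display. Neurons depend on the proteasome for protein turnover over long lives, and protein aggregates are a hallmark of motoneuron disease.

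Array median intensities lay between 131.7 and 145.9. Of the 10 motoneuron markers listed, 6 were measured; the cholinergic genes Chat and Slc5a7 and the motoneuron factors Isl2 and Mnx1 were not among them, and the label was checked on Slc18a3 (the vesicular acetylcholine transporter), Isl1, Prph and 3 neurofilament genes. Summed intensity of the 6 markers ran from 4975 to 8140 in IML, 9953 to 18331 in LMN and 8412 to 12285 in MMN. Such sums are linear, so bright genes weigh most. In IML the mean log2 intensity was 11.56 for Nefh and 10.99 for Nefm, against 7.18 for Slc18a3. The sum therefore reflects neurofilament genes far more than the cholinergic marker. Probe sets for markers of other cells gave intensity in every pool, but no detection calls were used, so intensity alone does not show presence. Summed over 14 microglia and macrophage markers, intensity ran from 3053 to 5515 in IML, 2445 to 2843 in LMN and 2570 to 3477 in MMN; over 11 markers of meninges and fibroblasts it ran from 21677 to 29324, 7624 to 20413 and 9832 to 32081. No listed marker was at 0, but inverse logs cannot be 0, so this says nothing about detection. In IML against the mean of LMN and MMN, 7 of the 14 microglia markers and 7 of the 11 meningeal markers were called higher, as were 1 of 7 astrocyte markers (Fabp7, by 1.30 on the log2 scale) and 1 of 7 endothelial markers (Vwf, by 1.30), against 4.00% of all genes. Of the 6 motoneuron markers 2 were called lower (Nefh and Nefl), against 2.29% of all genes. Against LMN, 8 of 14 microglia and 10 of 11 meningeal markers were called higher, against 6.30% of all genes, and 4 of 6 motoneuron markers lower, against 3.84%. Slc18a3 ran from 6.81 to 7.57 on the log2 scale in IML and from 7.40 to 9.87 in MMN, where animals 3 and 2 were lowest at 7.40 and 7.58. In LMN of animal 2 it was 7.12, within the IML range, against 8.36 to 10.11 in the other LMN samples, and results are also given without that sample where it changes a call. In such mixed captures, fewer cells of a type and less RNA per cell cannot be told apart.

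Across the pools, 1 proteasome gene lay well apart from the others. Psme1, a subunit of the interferon-inducible activator, was higher in IML than in the mean of LMN and MMN by 0.97 ± 0.10 (log2 difference ± SE, n = 5 animals), a 1.95-fold difference, and the lid subunit Psmd8 was lower in IML by a log2 difference of -0.29 ± 0.07. The calls were made with limma at a Benjamini-Hochberg adjusted p under 0.05 over all 12422 probe sets, with the animal as a block. Of the 56 member probe sets, 3 were called in this contrast (5.36%, for Psme1, Psmd8 and 1 of 3 probe sets of Psmd11), against 5.52% of all probe sets, so members were called about as often as other probe sets. The 1 called higher compares with 3.44% of all probe sets called higher, and the 2 called lower with 2.09% called lower.

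By gene, each taken at its brightest probe set, 35 of 44 proteasome genes (79.5%) had a negative difference between IML and the somatic pools, against 53.9% of all genes. The median difference was -0.09 on the log2 scale over proteasome genes and -0.01 over all genes. The same 2 medians were -0.14 and -0.02 for IML against LMN, -0.09 and 0.00 for IML against MMN, and 0.00 and 0.01 for LMN against MMN; the first 3 contrasts share the IML samples. Of the 44 member genes, 39 were brighter than the median over probe sets. All genes were not matched to them for intensity, so these shares and medians do not compare like with like. The plot of differences by gene shows that most intervals cover 0.

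**Figure D1:**
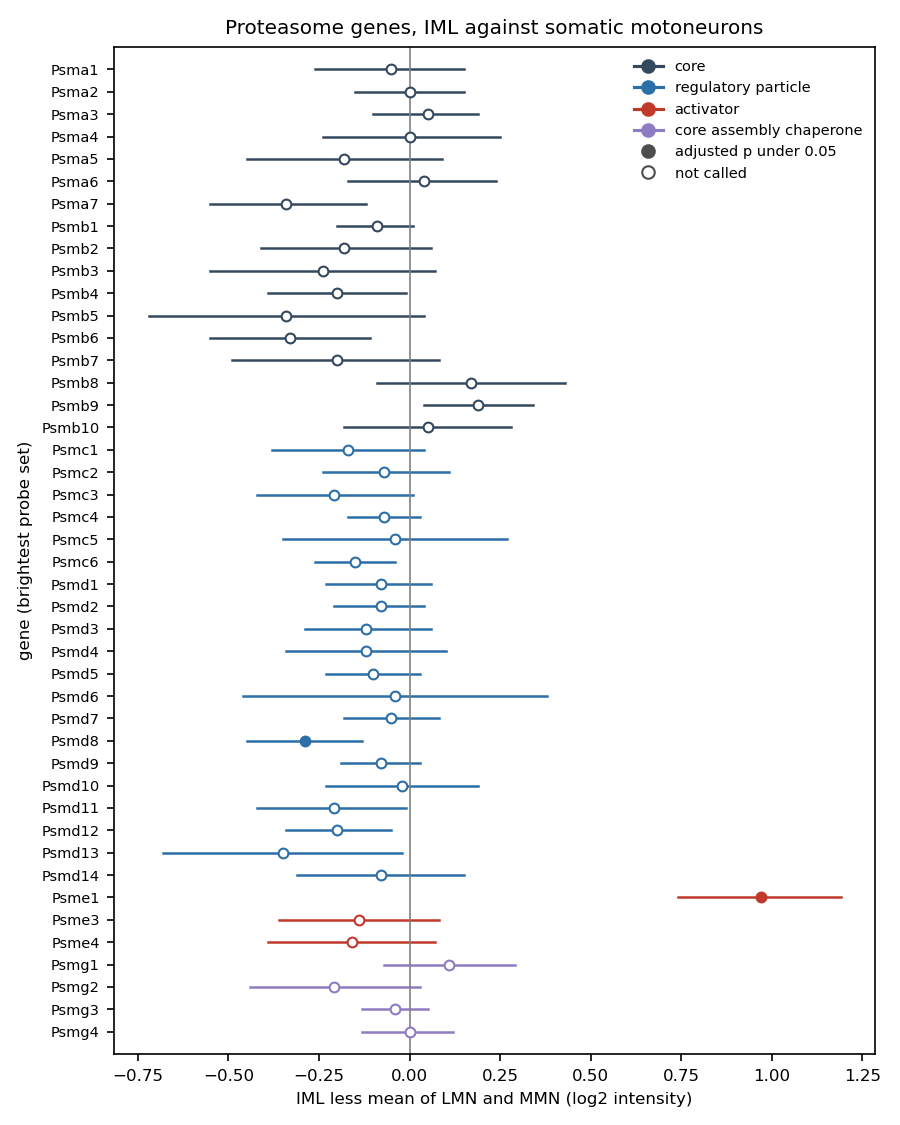
Log2 difference between IML and the mean of LMN and MMN for each of the 44 proteasome genes (1 row a gene, brightest probe set), with its 95% interval from the limma fit (n = 5 animals); colours give the class and filled points an adjusted p under 0.05. Psme1 at 0.97 lies apart from the other genes, which lie between -0.35 and 0.19, and Psmd8 is the other filled point.

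Psme1 encodes the alpha subunit of the activator cap. Its brighter probe set measured log2 intensities of 7.86, 7.66, 7.48, 7.48 and 7.44 in IML of animals 1 to 5. In LMN it measured 6.20, 6.86, 6.38, 6.32 and 5.96, and in MMN 6.84, 7.42, 6.94, 6.53 and 6.75. All 5 IML samples lay above all 10 somatic samples; 0.177% of all probe sets had IML above every somatic sample, and Psme1 was the 1 member probe set among them. The pool means were 7.59 ± 0.18 (SD) in IML, 6.34 ± 0.33 in LMN and 6.89 ± 0.33 in MMN. The lowest IML sample, 7.44, was close to the highest somatic sample, MMN of animal 2 at 7.42.

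The difference of 0.97 ± 0.10 had a 95% interval of 0.74 to 1.19 and an adjusted p of 0.000901, and was positive in 5 of 5 animals (1.34, 0.53, 0.82, 1.06 and 1.08). Against LMN alone Psme1 was higher by 1.24 ± 0.12 (2.37-fold, adjusted p = 0.000396). Against MMN alone it was higher by 0.69 ± 0.12 (1.61-fold, adjusted p = 0.0345), the 1 member called of 56, where 0.346% of all probe sets were called. The somatic pools also differed in all 5 animals, with MMN above LMN: LMN less MMN was -0.55 ± 0.12, which did not pass the test in the fit of all pools (adjusted p = 0.126) and passed when only LMN and MMN were fitted (adjusted p = 0.0407). The order IML, MMN, LMN therefore has its last step below the threshold.

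In arrays of technical set 1 alone, the difference of Psme1 between IML and the somatic pools was 1.06, and in set 2 alone 0.88, and both were called. Leaving out each animal in turn gave 0.87 to 1.08, with adjusted p between 0.00102 and 0.0126. The call against MMN was less firm: it was lost without animal 1, 3, 4 or 5 in turn (adjusted p from 0.108 to 0.164) and without LMN of animal 2 (adjusted p = 0.0633). It was also lost in technical set 1 alone (adjusted p = 0.0943), with a floor of 32 on the intensities (0.136), after quantile normalization (0.0583), with only the 2 pools fitted (0.176) and with no animal block (0.354); in all, 7 of 19 alternatives kept it. The second Psme1 probe set had a mean log2 intensity of 3.95 and a difference of 0.05 ± 0.08 and was not called, so the difference rests on 1 probe set.

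With the mean of the microglia markers as a covariate, a fit chosen after seeing the data, the difference of Psme1 was 0.78 ± 0.23 (95% interval 0.28 to 1.29), and with the mean of the meningeal markers 0.84 ± 0.23 (0.33 to 1.35). Neither passed the adjustment over all probe sets (adjusted p = 0.708 and 0.968), in fits whose median SE was 2.11 and 2.20 times that without the covariate and in which limma called 0 of all probe sets (860 and 504 at an unadjusted p under 0.05). The 2 other activators differed in the opposite direction and were not called. Psme3, the activator found mainly in the nucleus, was at -0.14 ± 0.10 (adjusted p = 0.5) and Psme4 at -0.16 ± 0.10 (adjusted p = 0.436).

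**Figure D2:**
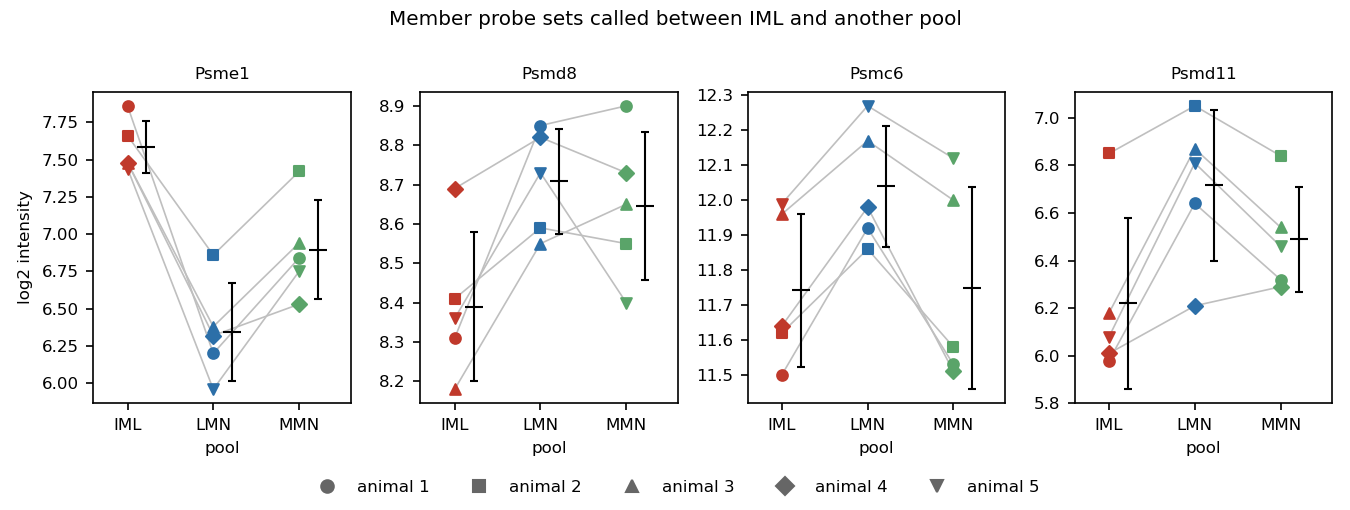
Log2 intensity of the 4 member probe sets called (for Psmd11 not the brightest) between IML and another pool, by pool; points are samples (mean of 2 arrays) with 1 symbol an animal, grey lines join the pools of an animal, and black marks give the mean ± SD (n = 5). For Psme1 all IML samples lie above all others, while for Psmd8, Psmc6 and Psmd11 the pools overlap, and IML lies below LMN in each animal.

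The 300 bases around the annotated start of Psme1, Psmd8 and Psmc6 are shown because these genes were called at their brightest probe set. The sequences are RefSeq's (GRCm38.p6), 250 bases before the start and 50 after, at chr14:55578244-55578543 (plus strand) for Psme1, chr7:29180624-29180923 (minus strand) for Psmd8 and chr14:45329574-45329873 (plus strand) for Psmc6. Both strands were searched for TGACNNNGC, the core of the antioxidant response element that Nfe2l1 and Nfe2l2 bind, and for the core of the interferon-stimulated response element (GAAA, any 2 bases, GAAA), which was chosen after seeing the data. Capitals mark a match.
Psme1: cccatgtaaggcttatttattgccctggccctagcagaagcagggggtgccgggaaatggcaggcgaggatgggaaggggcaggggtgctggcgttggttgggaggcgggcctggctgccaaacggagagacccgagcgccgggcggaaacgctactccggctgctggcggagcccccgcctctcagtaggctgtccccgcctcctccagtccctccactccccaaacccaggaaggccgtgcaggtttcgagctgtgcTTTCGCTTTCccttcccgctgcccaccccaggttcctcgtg
Psmd8: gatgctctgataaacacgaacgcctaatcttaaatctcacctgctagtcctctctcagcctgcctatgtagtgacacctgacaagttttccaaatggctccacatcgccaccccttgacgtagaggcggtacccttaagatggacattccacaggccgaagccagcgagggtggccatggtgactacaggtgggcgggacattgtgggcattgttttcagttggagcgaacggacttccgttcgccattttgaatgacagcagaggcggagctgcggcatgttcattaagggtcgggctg
Psmc6: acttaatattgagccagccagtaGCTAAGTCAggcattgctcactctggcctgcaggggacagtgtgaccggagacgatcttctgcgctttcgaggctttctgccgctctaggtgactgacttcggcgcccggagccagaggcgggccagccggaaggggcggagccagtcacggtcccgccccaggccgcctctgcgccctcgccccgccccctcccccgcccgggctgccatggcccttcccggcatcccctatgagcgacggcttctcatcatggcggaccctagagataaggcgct
Psme1 held the interferon element on the minus strand (TTTCGCTTTC, bases 260 to 269 of 300) and Psmc6 the antioxidant element on the minus strand (GCTAAGTCA, bases 24 to 32), and these letters do not overlap a match of the other motif. Psmd8 held neither. Promoters of 37 member genes were matched, 39 in all. The interferon element was in 5 of them (12.8%: Psmb3, Psmd4, Psmd9, Psme1 and Psmg4), against 3.44% of all 32851 promoters. The antioxidant element was in 6 (15.4%: Psmb5, Psmb6, Psmc6, Psmd12, Psmd9 and Psme4), against 12.4%.

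In the core, 0 of 17 genes were called by limma in any of the 4 contrasts. Of all genes, IML against the somatic pools called 6.29%, against LMN 10.1% and against MMN 0.436%, and LMN against MMN 0.0364%. At such shares the 0 of 17 is no result about the core. For IML against the somatic pools 4 of 17 had an unadjusted p under 0.05, as had 23.2% of all genes. The medians of the alpha and the beta ring lay apart, a difference that was not tested. The 7 alpha ring genes had a median of 0.00, with 3 negative. The 7 constitutive beta ring genes all had negative differences, from -0.34 to -0.09, with a median of -0.20. The nearest to the threshold were Psma7, an alpha ring subunit, at -0.34 ± 0.10 (adjusted p = 0.0709, lower in 4 of 5 animals) and Psmb6, which carries a catalytic site, at -0.33 ± 0.10 (adjusted p = 0.0844, lower in 4 of 5 animals).

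The catalytic subunits come in pairs, a constitutive one and the inducible one that takes its place. Psmb5 measured 8.60, 10.45, 9.71, 10.35 and 10.33 in IML of animals 1 to 5, 9.45 to 10.63 in LMN and 9.80 to 10.55 in MMN. IML of animal 1 was the lowest of the 15 samples and the pools overlapped. Its difference was -0.34 ± 0.17 (adjusted p = 0.304), and that of its partner Psmb8 was 0.17 ± 0.12 (adjusted p = 0.472). Psmb6 at -0.33 ± 0.10 stood beside Psmb9 at 0.19 ± 0.07 (adjusted p = 0.132, positive in 5 of 5 animals). Psmb7 at -0.20 ± 0.13 (adjusted p = 0.421) stood beside Psmb10 at 0.05 ± 0.10 (adjusted p = 0.87). Against the somatic pools, constitutive members were thus negative and inducible members positive in each of the 3 pairs. No member was called, and the difference between partners was not tested. Psmb8 and Psmb9 were dim, at mean log2 intensities of 6.33 and 6.20 against a median of 7.10 over probe sets. Against MMN alone Psmb10 was at -0.06, so the pattern did not hold in all 3 pairs. The signs of Psmb5, Psmb6, Psmb7, Psmb8 and Psmb9 turned with at least 1 marker covariate, and that of Psmb10 in technical set 2 alone and without animal 1 or 5.

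**Figure D3:**
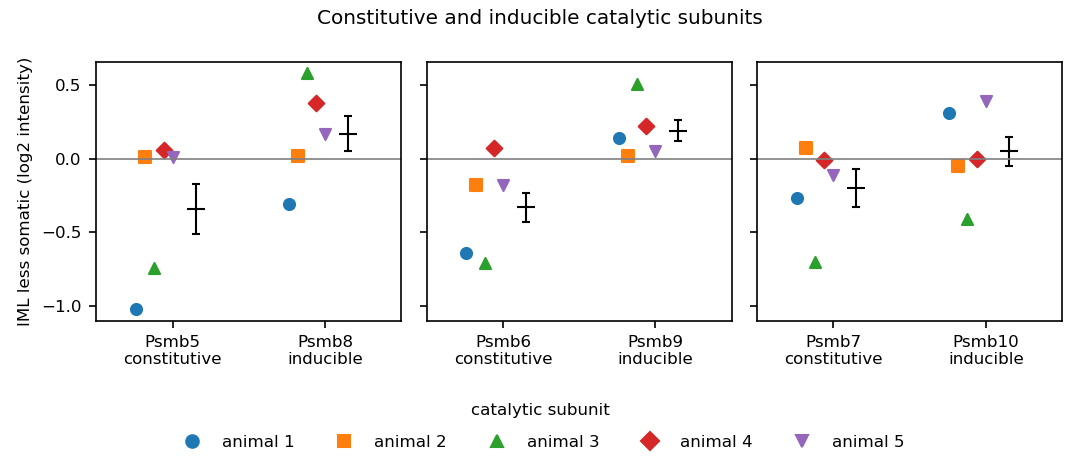
Log2 difference between IML and the mean of LMN and MMN for the 3 pairs of constitutive and inducible catalytic subunits; coloured points are animals and black marks the fitted difference ± SE (n = 5). The most negative points of Psmb5, Psmb6 and Psmb7 belong to animals 1 and 3, and animals 2, 4 and 5 lie closer to 0.

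Psmb9 measured 6.47, 6.28, 6.33, 6.39 and 6.13 in IML, 6.28, 6.20, 5.80, 6.12 and 5.92 in LMN and 6.39, 6.32, 5.84, 6.21 and 6.25 in MMN. The ranges overlapped, and within each animal LMN was the lowest pool, while IML and MMN had no fixed order. Its difference against LMN was 0.26 ± 0.08 (adjusted p = 0.065). Probe sets of 1 gene did not always point the same way: Psmb4 was at -0.20 and 0.04 in 2 of its 3 probe sets, Psmb5 at -0.34 and 0.06, and Psmc5 at -0.04 and 0.04, none called.

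In the regulatory particle, all 20 genes had a negative difference between IML and the somatic pools, from -0.35 to -0.02 with a median of -0.09, and 1 of them, Psmd8, was called lower, where 53.9% of all genes were negative and 2.29% called lower. The 6 base ATPases had a median of -0.11 and the 8 lid genes one of -0.16. The 3 remaining base subunits, Psmd1, Psmd2 and Psmd4, which include docking sites for ubiquitin chains, had a median of -0.08, as had the 3 base assembly chaperones Psmd5, Psmd9 and Psmd10. Against MMN, 18 of the 20 were negative, where 48.9% of all genes were. Here too all genes were not matched to the members for intensity.

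Psmd8, a lid subunit, measured 8.31, 8.41, 8.18, 8.69 and 8.36 in IML of animals 1 to 5. It measured 8.85, 8.59, 8.55, 8.82 and 8.73 in LMN and 8.90, 8.55, 8.65, 8.73 and 8.40 in MMN. IML was below both somatic pools of the same animal in 5 of 5 animals, though the ranges overlapped, IML of animal 4 being high and MMN of animal 5 low. The difference was -0.29 ± 0.07 against the somatic pools (adjusted p = 0.0454) and -0.32 ± 0.08 against LMN (adjusted p = 0.0391), and -0.26 ± 0.08 against MMN (adjusted p = 0.261). Psmd8 fell just inside the threshold: leaving out each animal in turn gave -0.34 to -0.22, with adjusted p from 0.0642 to 0.177, and without LMN of animal 2 it was 0.0643, so the call was lost each time. The call against LMN was also lost without each animal (adjusted p from 0.0559 to 0.118), without LMN of animal 2 (0.0628) and with only these 2 pools fitted (0.0519). The difference against the somatic pools was -0.17 in technical set 1 (adjusted p = 0.515) and -0.41 in set 2 (adjusted p = 0.00873). With the microglia marker mean as a covariate that difference was 0.01 ± 0.13, and with the meningeal mean -0.37 ± 0.17.

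Psmd11, another lid subunit, was called lower in 1 of its 3 probe sets. That probe set, not the brightest of the 3, measured 5.98, 6.85, 6.18, 6.01 and 6.08 in IML, 6.64, 7.05, 6.87, 6.21 and 6.81 in LMN and 6.32, 6.84, 6.54, 6.29 and 6.46 in MMN. IML of animal 2 stood above the other IML samples, and LMN was above IML in every animal. The difference was -0.38 ± 0.08 against the somatic pools (adjusted p = 0.0172) and -0.50 ± 0.09 against LMN (adjusted p = 0.00657). The brightest probe set was at -0.21 ± 0.09 and the third at -0.08 ± 0.04, neither called. Without animal 1, 3 or 5 the call against the somatic pools was lost (adjusted p from 0.0662 to 0.0942), and that against LMN was lost without animal 5 (0.0503). In technical set 1 alone both calls were lost (adjusted p = 0.213 and 0.164), at differences of -0.39 and -0.46. With the microglia marker mean as a covariate the difference was -0.14 ± 0.15 against the somatic pools and -0.23 ± 0.17 against LMN, and with the meningeal mean -0.20 ± 0.16 and -0.26 ± 0.21.

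Psmc6, an ATPase of the base, was called only in IML against LMN. There 4 of 56 member probe sets were called (7.14%: Psme1, Psmd8, Psmd11 and Psmc6), against 8.98% of all probe sets. Psmc6 measured 11.50, 11.62, 11.96, 11.64 and 11.99 in IML, 11.92, 11.86, 12.17, 11.98 and 12.27 in LMN and 11.53, 11.58, 12.00, 11.51 and 12.12 in MMN. Samples of animals 3 and 5 were high in every pool, and LMN was the highest pool in each animal. IML less LMN was -0.30 ± 0.06 (adjusted p = 0.0103, called without each animal in turn), and IML less MMN was 0.00 ± 0.06. LMN less MMN was 0.29 ± 0.06 and did not pass the test (adjusted p = 0.101). In technical sets 1 and 2 alone IML less LMN was -0.35 (adjusted p = 0.0334) and -0.24 (adjusted p = 0.228).

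Between LMN and MMN 0 of 56 member probe sets were called by limma, against 0.0564% of all probe sets, and 5 had an unadjusted p under 0.05, as had 11.6% of all probe sets. The smallest-p genes were Psme1 and Psmc6, given above, and Psma1, an alpha ring subunit, at 0.28 ± 0.11 (adjusted p = 0.353). Of the 44 genes, 22 were negative and 22 positive, where 44.1% of all genes were negative.

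The core assembly chaperones Psmg1 to Psmg4, which help to build the alpha ring, had differences from -0.21 to 0.11 with a median of -0.02, and 0 of 4 were called by limma in any contrast, nor had any an unadjusted p under 0.05 for IML against the somatic pools, where 6.29% of all genes were called and 23.2% had such a p, so the 0 of 4 is no result about these genes. Psmg4 was at 0.00 ± 0.06.

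The shift of the medians was uneven between animals. The median difference of the 44 genes between IML and the somatic pools was -0.20, -0.02, -0.30, 0.06 and -0.03 in animals 1 to 5, while that of all genes lay between -0.03 and 0.01. For the beta ring it was -0.64, -0.01, -0.40, 0.07 and -0.11, and for the lid -0.16, -0.10, -0.41, -0.07 and -0.21. Animals 1 and 3 had the lowest medians over all 44 genes and over the beta ring, and animals 3 and 5 over the lid. The IML samples of animals 1 and 3 also had the highest summed microglia markers, 4989 and 5515 against 3053 to 3774 in the other IML samples. These 2 samples had the lowest summed motoneuron markers, 4975 and 6244 against 7189 to 8140, a sum that gives neurofilament genes more weight than Slc18a3. In IML of animal 5 the microglia and motoneuron sums were 3732 and 8140. Sums for other cells were ordered differently. Meningeal markers were at 24403, 29211, 29324, 21677 and 21912 in IML of animals 1 to 5. Among IML samples, animal 2 was highest for astrocyte (14945) and oligodendrocyte markers (19432), and animal 5 for endothelial markers (2113). The 3' less 5' log2 difference of Gapdh, a measure of RNA quality, was 3.94 in IML of animal 1, the highest of the IML samples, and 2.38 in that of animal 3. It ran from 1.90 to 3.94 over IML, 1.77 to 2.73 over LMN and 2.03 to 4.02 over MMN. That of Actb was 2.53 in IML of animal 1, the highest of the 15 samples, and 1.86 in that of animal 3, against 1.69 to 2.30 in the other IML samples, 1.70 to 2.13 in LMN and 1.90 to 2.11 in MMN. The part of these in the medians was not tested. With the microglia marker mean as a covariate the median of the proteasome genes was 0.20, and with the meningeal mean it was -0.03. Without animal 1 or 3 it was -0.09 and -0.08, and without animal 4 it was -0.14.

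**Figure D4:**
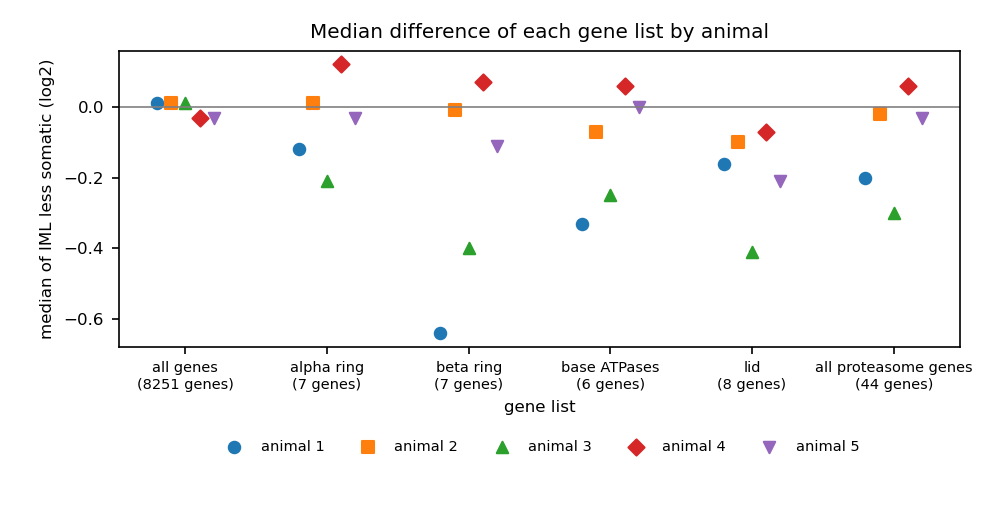
Median log2 difference between IML and the mean of LMN and MMN over the genes of each list, 1 point an animal. Over all 8251 genes the animals lie between -0.03 and 0.01, while over the 44 proteasome genes animals 1 and 3 lie at -0.20 and -0.30 and the others between -0.03 and 0.06.

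Precision differed between members and other genes. The 2 arrays of a sample differed with a median SD of 0.19 over proteasome genes and 0.13 over all genes, and the 95% interval of IML against the somatic pools had a median half-width of 0.21 and 0.14. For 38 of the 44 genes that interval lay within ±0.5 log2, the exceptions being Psma7, Psmb3, Psmb5, Psmb6, Psmd13 and Psme1. For every gene but Psme1 it lay within ±1. Across the 15 samples, after removal of the pool means, the median correlation over 946 pairs of proteasome genes was 0.09 and over all genes 0.03, a description in which the genes of a sample share its arrays and amplification.

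The wider ubiquitin system was read from lists of genes outside the rule. Among 17 proteasome partners, 1 was called, Nfe2l2, a transcription factor of the antioxidant response that can raise proteasome genes. It was higher in IML than in the mean of the somatic pools by 0.68 ± 0.14 (adjusted p = 0.0179, higher in 5 of 5 animals). Against LMN it was higher by 0.88 ± 0.16 (adjusted p = 0.00688). Against MMN it was at 0.48 ± 0.16 and not called by limma (adjusted p = 0.255, higher in 3 of 5 animals). The chaperone Pomp, needed for core assembly, was at -0.22 ± 0.10 (adjusted p = 0.241). The 1 of 17, and the 1 of 10 of the next list, compare with 6.29% of all genes called. In the MHC class I loading list, 1 of 10 was called, B2m, the light chain of the class I molecule, higher by 0.86 ± 0.11 (adjusted p = 0.00284) against the somatic pools and by 1.07 ± 0.13 against LMN (adjusted p = 0.00135). Against MMN B2m was at 0.65 ± 0.13 and not called by limma (adjusted p = 0.0772). Microglia and vessel cells also make B2m, and its source in these captures was not tested.

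Of 21 ubiquitin-conjugating enzymes, which pass ubiquitin on to targets, 1 was called lower in IML against the somatic pools (2.29% of all genes were), Ube2o at -0.30 ± 0.08 (adjusted p = 0.0486). Against LMN 7 of 21 were called lower and 0 higher, where 3.84% of all genes were called lower. These were Ube2e1 (-0.59 ± 0.15), Ube2t (-0.52 ± 0.13), Ube2v2 (-0.42 ± 0.10), Ube2n (-0.39 ± 0.08), Ube2o (-0.33 ± 0.09), Ube2g1 (-0.29 ± 0.08) and Ube2w (-0.24 ± 0.05), each lower in 5 of 5 animals. Ube2n and Ube2v2 act as a pair that builds ubiquitin chains used mainly in signalling rather than in breakdown. Against MMN 0 of the 21 were called by limma, with 1 at an unadjusted p under 0.05, where 0.436% and 13.9% of all genes were. The difference between these contrasts is LMN less MMN. For it also 0 were called and 6 had an unadjusted p under 0.05, against 0.0364% and 11.8% of all genes. Of 22 cullin-RING ligase genes, Cul4a, a cullin scaffold, was higher by 0.24 ± 0.06 (adjusted p = 0.0324), where 4.00% of all genes were called higher. Skp1, an adaptor, was lower against LMN by a log2 difference of -0.40 ± 0.10 (adjusted p = 0.0319), where 3.84% were called lower. Of 32 deubiquitinases and 3 ubiquitin, Nedd8 or activating enzyme genes 0 were called by limma in any contrast, with 3 and 0 at an unadjusted p under 0.05 for IML against the somatic pools. In that contrast 6.29% of all genes were called and 23.2% had such a p, and 10.1% were called against LMN. The counts were not tested against these shares. Against the somatic pools the smallest p of each list was that of Usp1 (0.50 ± 0.15, adjusted p = 0.0741) and Nedd8 (-0.19 ± 0.11, adjusted p = 0.369).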

How the data were processed

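Captured motoneurons of 3 pools from 5 mice were measured on 30 Affymetrix mouse arrays. Per the labels, the authors normalized the intensity values with a tool named R-pack and deposited inverse logs, so the values are linear intensity; the sources used here do not describe its method or any background correction. RNA was amplified in 2 rounds, which can favour 3' ends and add spread between arrays; its part in these values was not tested. The 66 control probe sets were left out of 12488. The log2 of the deposited intensity was taken, the 2 arrays of each sample were averaged, and limma 3.58.1 (R 4.3.3) was fitted to all 12422 probe sets with pool and animal as fixed terms; p-values were two-sided, adjusted by Benjamini-Hochberg, and called under 0.05. Per the labels each animal gave every pool, and deviations of same-animal samples correlated at 0.288 to 0.747. The script was tested on simulated data.

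A gene was represented by its brightest probe set by mean over samples. Symbols were updated through gene identifiers for 10817 probe sets (RefSeq, GRCm38.p6); 10833 had 1 symbol, 396 several and 1193 none. Named were Psmd8, Psme1, the catalytic pairs, every member called in any contrast, the 3 highest and 3 lowest genes of each contrast by the moderated statistic, genes whose probe sets differ in sign, and of each pathway list the called genes and the smallest p; others were named where a count or an exception fell on them, after their values were seen. The members and lists were chosen with earlier results of these data known. Alternatives were the block, the technical set, scaling, filters, the variance model and leaving out samples; the 2 marker covariates and the interferon motif were chosen after seeing the data. The number of arrays limits the precision.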

Additional observations from a re-analysis of the deposited data

Results flagged for a closer look

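Of 66 groups of 5 values tested for a sample far from the others, 4 stood out. Many groups share samples or genes, so the count was not set against a chance rate. Psmb4 at its brightest probe set, a beta ring subunit, was at 11.15 in MMN of animal 5, against 11.65 to 11.83 in the other MMN samples. The called probe set of Psmd11 was at 6.85 in IML of animal 2, against 5.98 to 6.18 in the other IML samples. For LMN less MMN, animal 2 had a median difference of 0.18 over all proteasome genes, against -0.05 to -0.02 in the other animals, and of 0.22 over the regulatory particle genes, against -0.06 to 0.01. LMN of that animal is the sample with the lowest Slc18a3 of its pool, 7.12 on the log2 scale. No cause was tested for any of these.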

How the results depend on the processing

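Counts of called member probe sets with the animal as a block were 3 for IML against the somatic pools, 4 against LMN, 1 against MMN and 0 for LMN against MMN. With no replicate block they were 1, 1, 0 and 0, and the counts of all probe sets were 46, 135, 4 and 0 (0 for LMN against MMN by limma, with 435 at an unadjusted p under 0.05). Same-animal pools deviated together in all 15 pairs of samples. Samples of different animals were not compared in this way, so these correlations alone cannot show that the pairing held. In technical set 1 alone members called were 1, 2 and 0 for the 3 IML contrasts and all probe sets 304, 601 and 9; in set 2 alone members called were 6 for IML against the somatic pools, and all probe sets 713 for IML against LMN and 3 for LMN against MMN. A floor of 32 gave 282, 717 and 10 of all probe sets for the IML contrasts and 0 members against MMN (7 at an unadjusted p under 0.05), as did quantile normalization (0 members, 9 unadjusted). Fitting only the 2 pools compared gave 705 of all probe sets for IML against LMN, 6 against MMN with 0 members (5 unadjusted), and 67 for LMN against MMN with 1 member, Psme1. A random block gave 67 of all probe sets for IML against MMN and 4 for LMN against MMN. At an adjusted p under 0.1, 5 members were called against the somatic pools and 8 against LMN.

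Leaving out each animal in turn, or LMN of animal 2, gave 1 to 4 members for IML against the somatic pools (164 to 650 of all probe sets), 2 to 5 against LMN (371 to 935) and 0 to 1 against MMN (0 to 42, 21 without LMN of animal 2). For LMN against MMN it gave 0 to 0 members and 0 to 10 of all probe sets. Psme1 was the member called throughout against the somatic pools, and Psme1 and Psmc6 were those called throughout against LMN. These fits had fewer samples.

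With either marker mean as a covariate, limma called 0 of all probe sets and 0 members in all 4 contrasts; for IML against the somatic pools 5 members had an unadjusted p under 0.05 with microglia and 2 with meninges. The median of the proteasome genes moved with the microglia covariate to 0.20 against the somatic pools, 0.21 against LMN and 0.14 against MMN, and with the meningeal covariate to -0.03, -0.04 and -0.05. It was -0.07 against LMN in technical set 1 alone, -0.14 against the somatic pools without animal 4 and -0.05 against MMN without animal 3. Signs against the somatic pools turned with that covariate for Psma1 (0.44), Psma7 (0.23), Psmb4 (0.15), Psmb5 (0.53), Psmb6 (0.25), Psmb7 (0.44), Psmb9 (-0.03), Psmc5 (0.43), Psmd8 (0.01, and 0.01 against LMN), Psmd14 (0.25) and Psmg4 (0.13). With the meningeal covariate they turned for Psma1 (0.05), Psmb7 (0.09), Psmb8 (-0.34), Psmb9 (-0.03), Psmc5 (0.30), Psmd14 (0.14) and Psmg4 (0.19). Technical set 1 alone turned Psma3 (-0.01) and Psmg4 (0.03), and set 2 alone Psma1 (0.06), Psmb10 (-0.07) and Psmd14 (0.01). Leaving out samples gave -0.13 to 0.03 for Psma1, -0.02 to 0.10 for Psma3, -0.04 to 0.16 for Psmb10, -0.13 to 0.12 for Psmc5 (0.01 without LMN of animal 2), -0.15 to 0.01 for Psmd14 and -0.03 to 0.06 for Psmg4. Of these, only Psmd8 was called without the alternative. The causes were not tested. The remaining settings (arrays centred on their median, no dim or no suffixed probe sets, another variance model) kept the counts of members within 1.5 times of those above. No setting moved the median of all genes beyond -0.04 to 0.02. With 5 animals a pool, 2 arrays a sample and no detection calls used, small differences may be missed.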
